A study of Bos taurus with 12 samples.

Results

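The respiratory chain subunits encoded in the nucleus were followed in mammary biopsies of 12 lactating Holstein cows. Genes were taken by symbol: NDUFA, NDUFB, NDUFC, NDUFS and NDUFV subunits for complex I, SDHA to SDHD for complex II, UQCR genes for complex III, COX4 to COX8 genes for complex IV and ATP5 genes for complex V. Assembly factors and pseudogenes were left out. This gave 80 genes measured by 163 probes, of 12639 genes that could be named on the array. They comprised 37 genes of complex I, 3 of complex II, 7 of complex III, 15 of complex IV and 18 of complex V. A further 6 protein-coding symbols that fit these names (COX5A, COX7C, COX8C, NDUFS8, SDHC and UQCRC2) matched no probe and were not analysed here.

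The respiratory chain sits in the inner mitochondrial membrane. Complexes I and II take electrons from NADH and succinate, complex III passes them to cytochrome c, complex IV hands them to oxygen, and complex V uses the resulting proton gradient to make ATP. The secretory epithelium of a lactating gland uses this ATP for the synthesis and export of milk, and most subunits are built from nuclear genes, while a small set is encoded by mitochondrial DNA.

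All cows were multiparous and in early lactation, 24 ± 3 days in milk. The 6 control cows (CONT) kept free access to a lactation diet, and the 6 restricted cows (REST) received that ration diluted with barley straw, which made up 48% of dry matter, for 4 days. On day 3, 50 µg of lipopolysaccharide (LPS), a bacterial cell wall component that provokes inflammation, was infused into a healthy rear gland of the udder in both groups, and tissue was taken 24 h later. No biopsy from an unchallenged gland was analysed, so the comparison is between diets in inflamed tissue. Each cow was measured on 1 single-colour array. Signals are log2 values with the 75th percentile of each array set to 0, and each gene is represented by its brightest probe. The log2 fold change (FC) is REST minus CONT, with its standard error (SE).

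The arrays had 57.6% to 78.1% of their probes well above background, and their 75th percentiles lay between 386.9 and 1184 intensity units. They were on 3 slides of 4 arrays, holding 3 CONT and 1 REST, 1 CONT and 3 REST, and 2 of each. The slide was therefore tied in part to diet, and values within slides or with slide in the model are given for a part of the genes. Of 7 markers of secretory epithelium that were matched, all were well above background on all 12 arrays. CONT cow 8027, whose array had the highest 75th percentile, stood apart. Its summed linear signal was the lowest of all cows for the epithelial, adipocyte, T cell, B cell and endothelial markers. By mean log2 deviation of the same markers from their 12-cow mean, CONT cow 9040 was the lowest for T cells (-0.24, against -0.12). REST cow 0049, whose array had the lowest 75th percentile, stood apart as well. It had the lowest summed neutrophil (4.03, where CONT began at 17.1), macrophage and fibroblast signal. Its summed epithelial, adipocyte, T cell and B cell signal was the highest. By mean log2 deviation it was not the highest for epithelial (-0.03, against 0.41 in REST cow 7043), adipocyte or T cell markers. Since biopsies are mixed tissue, fewer cells of a type and less RNA per cell cannot be told apart.

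Of the 80 subunits, 77 were well above background on every array. COX6A2 was so on 6 CONT and 5 REST arrays, COX8B on 5 CONT and 6 REST arrays, and COX7B2, a testis isoform, on none. No member probe was saturated.

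Expression of the subunits did not pass the threshold for a difference between diets in any complex. No member was called by limma with Westfall-Young or with Benjamini-Hochberg adjustment, and over all 43653 probes the share called was 0% by either. At an unadjusted limma p under 0.05, 0 of 80 members were found, against 2.64% of all named genes (1.63% higher and 1.01% lower in REST). Of the 163 member probes 0 reached it, against 2.59% of the probes of named genes. In no member were the groups separate, where 0.0791% of named genes had every REST cow above every CONT cow and 0.0712% had every REST cow below. The lowest unadjusted p among members was 0.0912 (limma), and 66 of the 80 differences were smaller than their own SE.

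These differences were measured with narrow intervals. The median SE was 0.16 for the members and 0.25 for all named genes. The 95% interval of the FC lay within 1.5-fold in either direction for 66 of 80 members (82.5%), compared with 36.2% of all named genes and 49.5% of the named genes detected on every array. It lay within 2-fold for 77 of 80. The exceptions to the 1.5-fold bound numbered 14 and included the tissue isoforms of complex IV.

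In direction, 25 members had a higher mean in REST and 55 a lower one, so 31.2% were higher against 43.5% of all named genes. The median log2 FC was -0.06 for the members and -0.03 for all named genes. The middle 50% of members lay between -0.13 and 0.02, and the middle 50% of all named genes between -0.16 and 0.12. This imbalance of signs was not stable in size. With slide in the model 13 members were higher (16.2%, against 52.4% of named genes). Without CONT cow 8027 the count was 7, without CONT cow 0055 or REST cow 1015 it was 16, and without REST cow 1018 it was 36. Under normexp background correction the share was 40% for members and 39.2% for all named genes.

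**Figure D1:**
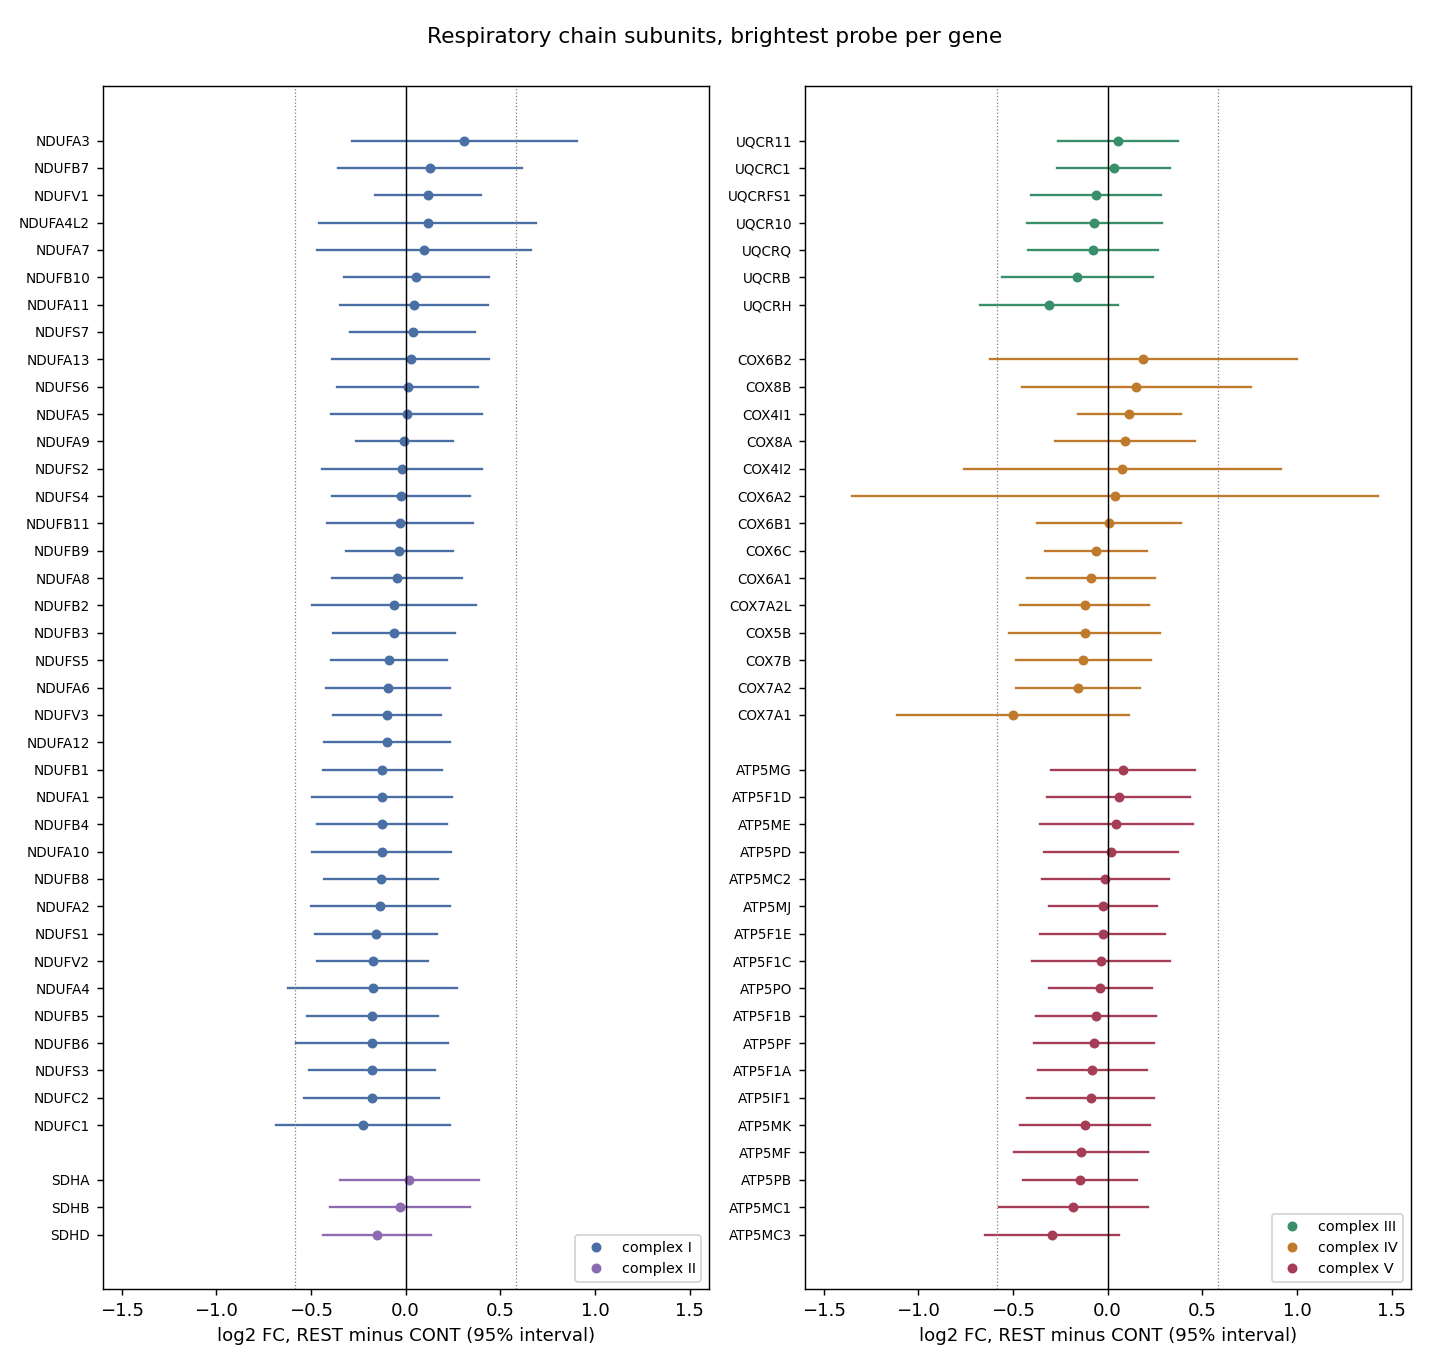
Log2 FC (REST minus CONT) of 79 subunits with its 95% interval from limma (n = 6 cows per group), grouped by complex, without COX7B2, for which all arrays were at background; dotted lines mark 1.5-fold. Every interval includes 0, and 66 lie within the dotted lines.

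Complex I, NADH dehydrogenase, held 11 subunits with a higher mean in REST and 26 with a lower one. Its median log2 FC was -0.06. The medians within slides were -0.09, -0.09 and -0.08, and with 1 cow left out the median ran from -0.12 (without CONT cow 0055) to -0.02 (without CONT cow 0015). For 31 of its 37 genes the interval lay within 1.5-fold.

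Of the genes that take electrons from NADH, NDUFV1 had the higher mean in REST. NDUFV1, which binds NADH, ranged from 3.28 to 3.74 in CONT (median 3.65) and from 3.62 to 3.80 in REST (median 3.72). The groups overlapped, since the highest CONT cows lay within the REST range (log2 FC 0.12, SE 0.13; exact permutation test, two-sided, p = 0.169). CONT cow 8027 was the lowest, and without it the log2 FC of NDUFV1 was 0.06. NDUFV2, its iron-sulfur partner, went the other way, with 4.54 to 4.89 in CONT (median 4.80) and 4.41 to 4.92 in REST (median 4.59). REST cow 1058 was the highest of all cows for NDUFV2 while the other 5 REST cows were below the CONT mean (log2 FC -0.17, SE 0.13; exact permutation p = 0.0887). NDUFS1, the largest iron-sulfur subunit, lay between 0.84 and 1.26 in CONT (median 1.18) and between 0.76 and 1.37 in REST (median 0.89), with a log2 FC of -0.16 (SE 0.15; exact permutation p = 0.19). The single highest cow for NDUFS1 was REST cow 1015.

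NDUFS3, a core subunit of the arm that leads electrons to ubiquinone, gave 2.67 to 3.40 in CONT (median 3.08) and 2.60 to 3.04 in REST (median 2.85), with a log2 FC of -0.18 (SE 0.15). The ranges overlapped over most of their length. Among accessory subunits, NDUFB5 gave -0.17 (SE 0.16) and NDUFC2 gave -0.18 (SE 0.16). NDUFA3 had the highest FC of all members, with 4.07 to 5.35 in CONT (median 4.86) and 4.53 to 5.85 in REST (median 5.02). Its log2 FC was 0.31 (SE 0.27), with 0.10 when slide was in the model, and within slides it was -0.27, 0.53 and 0.05, so that its direction was not shared by the slides. Its 3 probes also differed in sign, from -0.07 to 0.31.

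Complex II, succinate dehydrogenase, also belongs to the citric acid cycle, and 3 of its genes were measured. SDHA, the flavoprotein that oxidises succinate, had a range of 4.45 to 5.15 in CONT (median 4.87) and of 4.43 to 5.10 in REST (median 4.94). Its log2 FC was 0.02 (SE 0.17), with a 95% interval from -0.35 to 0.39. SDHB, the iron-sulfur subunit, differed by -0.03 (SE 0.17). SDHD, a membrane anchor, lay between 2.53 and 2.87 in CONT (median 2.70) and between 2.37 and 2.81 in REST (median 2.51). For SDHD, 4 of the 6 REST cows were below every CONT cow, and REST cow 1015 was near the top of the CONT range (log2 FC -0.15, SE 0.13; exact permutation p = 0.0974). The within-slide differences of SDHD were -0.22, -0.15 and -0.13.

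Complex III, which carries electrons from ubiquinol to cytochrome c, had 2 genes higher and 5 lower in REST and a median of -0.07. UQCRH, the hinge protein beside the cytochrome c site, had the lowest unadjusted p of all members. It spanned 4.44 to 5.10 in CONT (median 4.85) and 4.12 to 4.78 in REST (median 4.54). Each of the 6 REST cows was under the CONT mean, and 2 were under the lowest CONT cow. Its log2 FC was -0.31 (SE 0.17, 95% interval -0.68 to 0.06; exact permutation p = 0.0649) and its adjusted p was 1 (limma, Westfall-Young). The differences within slides were -0.41, -0.02 and -0.54.

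The core genes of complex III were closer to 0. UQCRC1, a large core protein, differed by 0.03 (SE 0.14), and the Rieske iron-sulfur protein UQCRFS1 by -0.06 (SE 0.16). The small subunits UQCRB, UQCRQ and UQCR10 gave log2 FC of -0.16 (SE 0.18), -0.08 (SE 0.16) and -0.07 (SE 0.17). UQCRH therefore stood below its partners in value, and that difference between genes was not tested.

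Complex IV, cytochrome c oxidase, had 7 genes higher and 8 lower in REST and a median of -0.06. The median was -0.12 with slide in the model and -0.03 without COX7B2, and it ran from -0.17 (without REST cow 1015) to -0.01 (without REST cow 1018) with 1 cow left out. It also held the widest intervals, since 9 of its 15 genes were bounded within 1.5-fold. COX4I1, the common form of its regulatory subunit, lay between 5.24 and 5.46 in CONT (median 5.31) and between 5.24 and 5.66 in REST (median 5.44). In REST, 3 cows were above every CONT cow (log2 FC 0.11, SE 0.13; exact permutation p = 0.136). COX7A2, the common form of subunit 7a, gave 3.32 to 3.64 in CONT (median 3.57) and 3.07 to 3.82 in REST (median 3.31). Here 4 REST cows were below every CONT cow and REST cow 1015 was above them all (log2 FC -0.16, SE 0.15; exact permutation p = 0.197).

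Complex V, ATP synthase, held 4 genes with a higher and 14 with a lower mean in REST, a median of -0.05 and 17 of 18 intervals within 1.5-fold. The catalytic head was close between groups. ATP5F1A, the alpha subunit, differed by -0.08 (SE 0.13) and had 6 probes, all with a negative log2 FC, from -0.17 to -0.05. ATP5F1B, the catalytic beta subunit, lay between 5.63 and 6.07 in CONT (median 5.81) and between 5.58 and 6.03 in REST (median 5.66), a log2 FC of -0.06 (SE 0.15). Its REST cows formed a low set of 4 and a high pair, REST cows 1015 and 1058. ATP5IF1, which inhibits the enzyme when it runs backwards, differed by -0.09 (SE 0.16).

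In the stalk and membrane part, ATP5PB differed by -0.15 (SE 0.14) and ATP5MF by -0.14 (SE 0.16). The c ring, which turns as protons pass, is made from 3 genes that encode the same mature protein with different import sequences. ATP5MC3 had the lowest unadjusted p of complex V, with 4.34 to 4.88 in CONT (median 4.43) and 3.86 to 4.52 in REST (median 4.22). For ATP5MC3, 4 REST cows were below every CONT cow (log2 FC -0.30, SE 0.16, 95% interval -0.65 to 0.06; exact permutation p = 0.0628), and its adjusted p was 1 (limma, Westfall-Young). ATP5MC1 gave a log2 FC of -0.18 (SE 0.18), or -0.08 without CONT cow 1024. ATP5MC2, named after its values were seen because it completes the c subunit genes, lay between 5.48 and 6.05 in CONT and between 5.29 and 5.87 in REST (log2 FC -0.01, SE 0.15). The 3 genes of the c ring thus spanned log2 FC of -0.30 to -0.01, and their intervals overlapped.

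**Figure D2:**
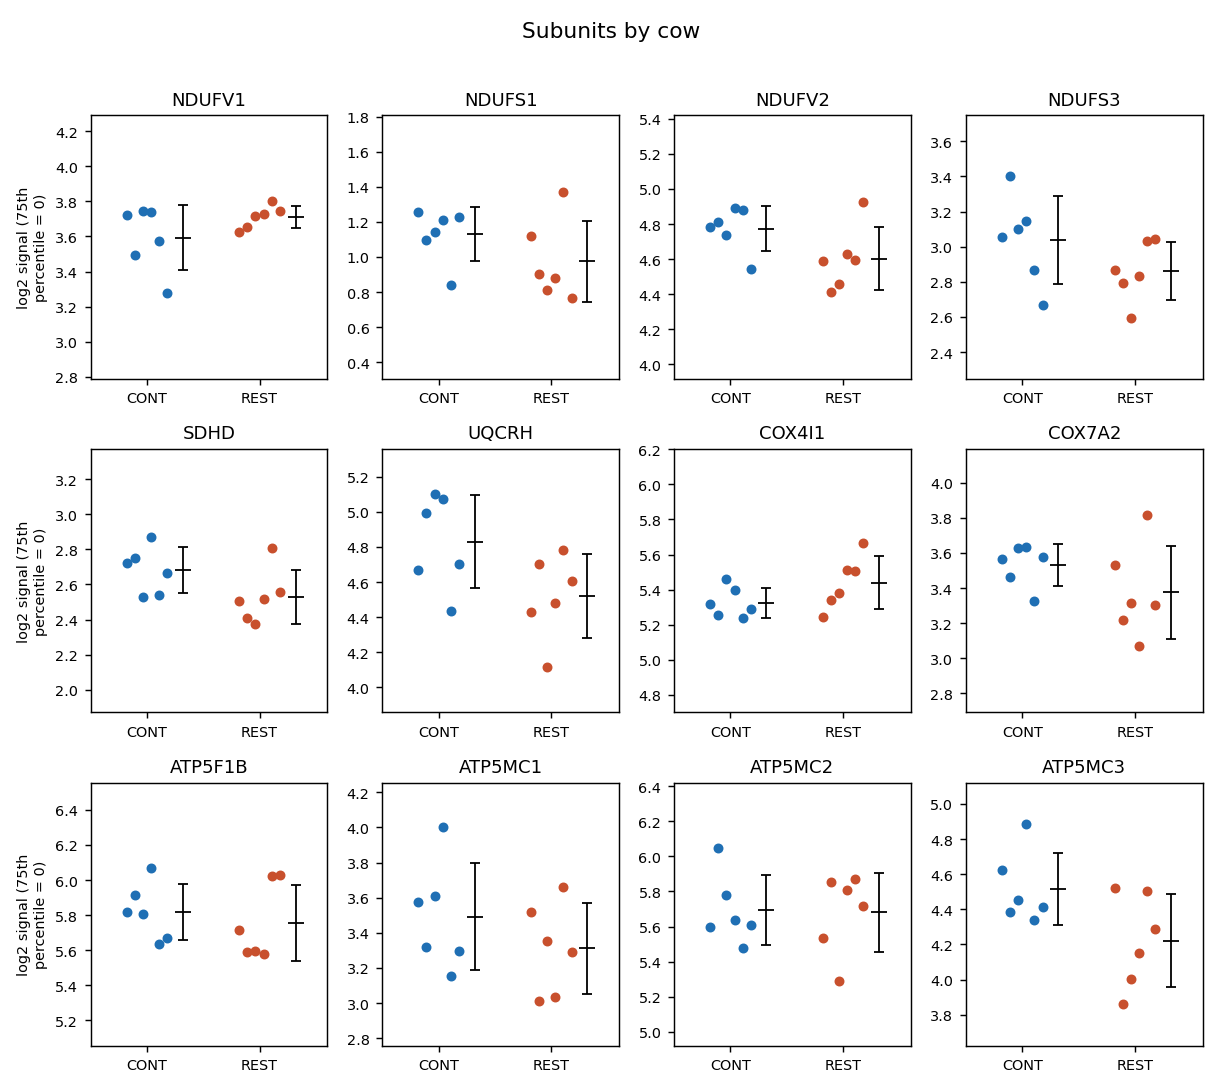
Log2 signal (75th percentile of each array = 0) of 12 subunits, with a point for each of the 6 CONT and 6 REST cows and the group mean with its SD beside the points; panels have their own axes. In all 12 genes the ranges of the groups overlap.

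Some subunits have tissue isoforms, which replace the common form in muscle, heart, lung or testis. COX7A1, the muscle and heart form of subunit 7a, had the most negative log2 FC of the subunits above background. It lay between 0.84 and 1.69 in CONT (median 1.08) and between -0.33 and 1.28 in REST (median 0.81). In REST, 3 cows were below every CONT cow and the other 3 were within the CONT range. Its log2 FC was -0.50 (SE 0.28, 95% interval -1.11 to 0.11; exact permutation p = 0.13), and its other probe gave -0.47 (SE 0.29). Within slides COX7A1 gave 0.18, -0.91 and -0.15, and -0.28 with slide in the model. The 3 lowest REST cows were all on the slide with 1 CONT cow, so slide and cow cannot be told apart there.

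Markers of other cell types were read beside COX7A1. Of the 7 striated muscle markers, 2 had a higher and 5 a lower mean in REST, and their median was -0.05 (log2 FC). The single marker with an unadjusted limma p under 0.05, TNNT3, was higher in REST by 1.12 (SE 0.41) and exceeded background on 4 CONT and 6 REST arrays. The muscle markers exceeded background on all arrays in 4 cases, and TNNC2 did so on none. Their summed signal, relative to the 75th percentile, ran from 2.05 to 4.96 in CONT and from 1.95 to 3.57 in REST.

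The fibroblast markers were lower in part of the REST cows. All 5 were detected on every array, 4 had a lower mean in REST, and 3 of these had an unadjusted limma p under 0.05, with no call after adjustment by Westfall-Young or Benjamini-Hochberg. Their median log2 FC was -0.65, and within slides it was 0.20, -1.07 and -0.24. Their summed signal ran from 29.4 to 42.4 in CONT and from 13.0 to 47.1 in REST. REST cows 0049, 7043 and 1015, the 3 that were lowest for COX7A1, had mean fibroblast deviations of -1.13, -0.36 and -0.60. REST cow 1058 had -0.45, with COX7A1 at 1.16, within the CONT range. REST cow 0049 was the lowest for both, and without it the log2 FC of COX7A1 was -0.31. The part of muscle or fibroblast content in the COX7A1 value was not tested.

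The other muscle and testis forms had wider intervals. COX6A2 differed by 0.04 with an SE of 0.64, and within slides by -1.43, 1.48 and -0.80. COX8B differed by 0.15 (SE 0.28), or 0.34 with slide in the model, and the testis form COX6B2 by 0.19 (SE 0.37), while its other probe gave -0.44 (SE 0.34). The 95% interval of COX6A2 ran from -1.35 to 1.43, so these arrays did not bound its difference closely. COX7B2 did not exceed background on any array in either group, so no FC is given. It is counted among the members with a lower mean, and without it 25 members were higher and 54 lower.

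The direction of 5 isoforms turned without CONT cow 8027. COX6A2 became -0.34, COX6B2 -0.05 and COX8B -0.03, and COX4I2 and NDUFA4L2 turned as well. COX4I2, the lung form of subunit 4, lay between -2.23 and -1.38 in the other 5 CONT cows, at -3.87 in this cow and between -2.59 and -1.32 in REST. NDUFA4L2, a hypoxia-induced relative of NDUFA4, lay between -0.72 and -0.21 in the other CONT cows, at -1.88 in this cow and between -0.72 and -0.21 in REST. Their log2 FC were 0.08 (SE 0.39) and 0.12 (SE 0.27) with all cows, and -0.26 and -0.13 without CONT cow 8027. With slide in the model COX4I2 gave 0.33. The endothelial markers, whose mean deviation was -1.93 in this cow and -0.09 to 0.25 in the other CONT cows, moved with it. All 4 had a higher mean in REST, exceeding background on each array, and their part in these values was not tested.

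**Figure D3:**
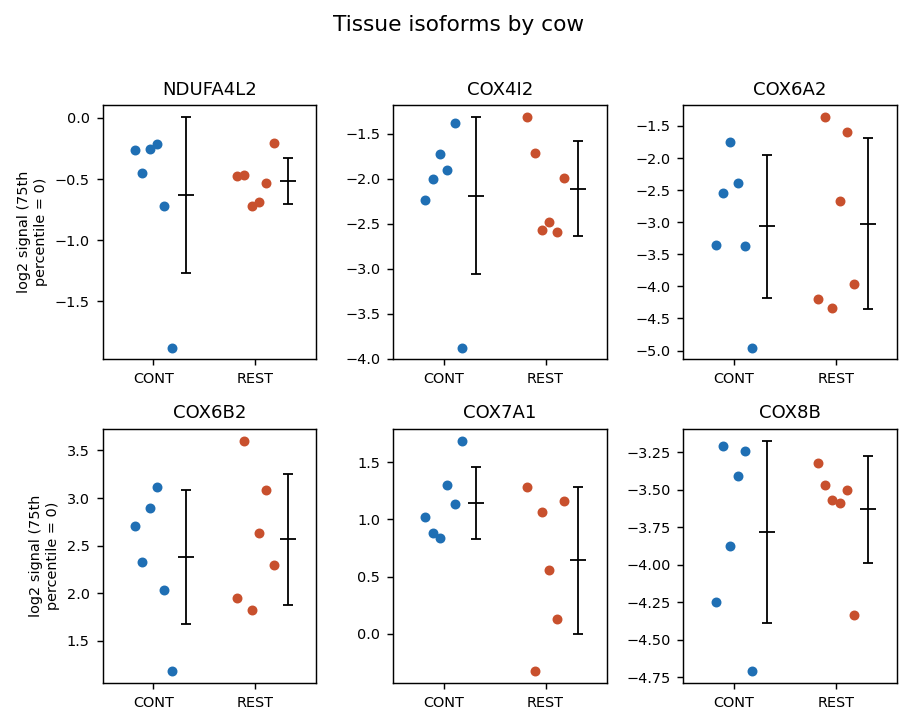
Log2 signal (75th percentile of each array = 0) of 6 isoform genes, with a point for each of 6 CONT and 6 REST cows and the group mean with its SD beside the points; panels have their own axes. CONT cow 8027, the last CONT point, is at -3.87 for COX4I2 and -1.88 for NDUFA4L2, below all other cows.

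NDUFA4, counted here with complex I by its symbol, is now known as a subunit of complex IV. Named after its values were seen, it lay between 4.97 and 5.83 in CONT (median 5.48) and between 4.69 and 5.74 in REST (median 5.20), with overlapping groups and a log2 FC of -0.17 (SE 0.21), or -0.26 with slide in the model.

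Several probes of the same gene gave a check on these values. Of the 46 members with at least a pair of probes well above background on all arrays, 35 had the same sign in every probe and 11 had mixed signs. The mixed set included ATP5F1B, COX4I1, NDUFA3, SDHA and ATP5MC2, and no probe in it had an unadjusted limma p under 0.05. Over all 163 member probes, 58 were higher and 105 lower in REST.

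The difference between diets was smaller than the spread of cows within a diet. For each cow the deviation of each member from its mean over the 12 cows was averaged over the 80 members. CONT cows lay between -0.24 and 0.24 (median 0.08), and REST cows between -0.28 and 0.23 (median -0.04). The difference between diets was -0.06, less than the SD within CONT (0.193) and within REST (0.167). These are descriptions of the cows and carry no test.

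In part of the cows the shift was shared by most subunits. In CONT cow 1024, 75 of 80 members were above their own mean over the 12 cows, in REST cow 1015 71 were, and in CONT cow 9040 70 were. In REST cow 1018 only 7 of 80 were above it, in CONT cow 0055 8 were, and in CONT cow 8027 12 were. CONT cow 0015 had 69, CONT cow 1076 had 52 and REST cow 1058 had 46. REST cows 0078, 0049 and 7043 had 33, 26 and 25. Among the named genes detected on all arrays, the share above their own mean stayed between 46.0% and 57.8% in every cow. High and low cows thus occurred in both diets. The electron carriers and partners described below had a mean deviation of 0.23 in CONT cow 1024 and 0.18 in REST cow 1015. It was -0.24 in CONT cow 8027 and -0.15 in REST cow 1018. For the assembly factors, the values in these cows were 0.22, 0.10, -0.02 and -0.08, in that order.

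The complexes moved together in 5 cows. All 5 complexes were above their mean in CONT cows 1076 and 1024 and in REST cow 1015, and all were below in CONT cow 8027 and REST cow 1018. In REST cow 1015 they lay within a narrow span, from 0.22 for complex II to 0.24 for complex V. In the other 7 cows the signs were mixed. In part of them only a complex near its mean differed in sign from the rest. This was complex II in CONT cow 0015 (-0.01), and complex IV in CONT cows 9040 (-0.03) and 0055 (0.03). In REST cow 0049, complex IV was at 0.14 while complex III was at -0.19 and complex V at -0.17.

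Array measures differed between these cows too. The cow with the highest mean, CONT cow 1024, had the lowest share of probes well above background (57.6%), and REST cow 1018 and CONT cow 8027, with the lowest means, had the highest shares (78.1% and 76.0%). This order did not hold in all cows: REST cow 1015, with a mean of 0.23, had 70.7%, and REST cow 0078, with the next lowest share (63.2%), had a mean of -0.02. The part of array quality in the shift was not tested. The range over cows was 0.519, with quantile normalization 0.325 and with normexp 0.449, and REST cow 1018 remained the lowest and CONT cow 1024 the highest under both. CONT cow 1076 was at 0.07 in the main scale and at -0.15 with normexp.

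**Figure D4:**
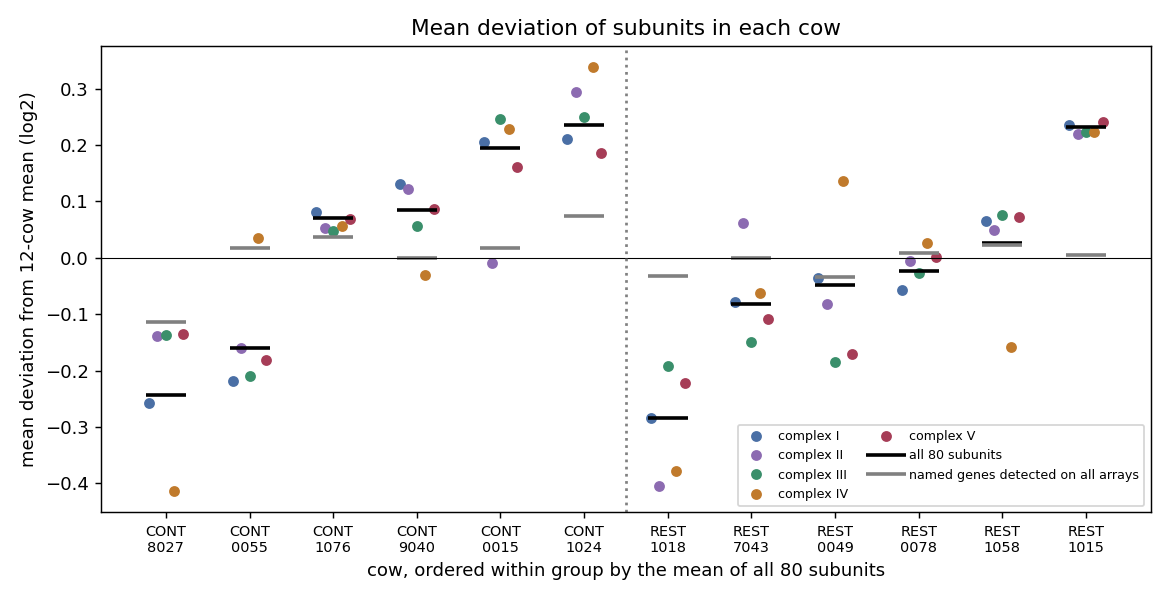
Mean deviation (log2) from the 12-cow mean in each cow for the genes of each complex (points), for all 80 subunits (black bars) and for the named genes detected on all arrays (grey bars), with cows ordered within each group. Subunit means run from -0.24 to 0.24 in CONT and from -0.28 to 0.23 in REST, and detected genes from -0.11 to 0.07.

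The genes that build and serve the chain were read beside the subunits. Of 55 assembly factors, which insert subunits and cofactors, 46 were matched. Of these, 8 had a higher and 38 a lower mean in REST. Their median log2 FC was -0.11, and 0 had an unadjusted limma p under 0.05. None was called by Westfall-Young or Benjamini-Hochberg adjustment. With slide in the model their median was -0.09.

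SCO1, a copper chaperone for complex IV, lay between 2.07 and 2.32 in CONT (median 2.24) and between 1.76 and 2.14 in REST (median 2.05). For SCO1, 4 REST cows were below every CONT cow (log2 FC -0.21, SE 0.12; exact permutation p = 0.00866, not adjusted), but its adjusted p was 1 (limma, Westfall-Young). The lowest value was that of REST cow 0049, and without it the log2 FC was -0.15. COX15, which makes the heme A of complex IV, differed by -0.30 (SE 0.16), or -0.19 with slide in the model, and the complex I factor NDUFAF4 by -0.44 (SE 0.23). NDUFAF4 exceeded background on 5 CONT and 6 REST arrays.

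Among regulators of mitochondrial genes, 21 of 25 were matched, with 10 higher, 11 lower and a median of -0.01. The nuclear receptor ESRRA was the only regulator with an unadjusted limma p under 0.05 and the only one with separate groups. Another regulator had a higher log2 FC (0.58). ESRRA lay between 0.92 and 1.63 in CONT (median 1.31) and between 1.66 and 2.02 in REST (median 1.89). The lowest REST cow was higher than the highest CONT cow (log2 FC 0.55, SE 0.15), yet its adjusted p was 1 (limma, Westfall-Young). The subunits, many of which are known targets of this receptor, were measured in the same biopsies with a median log2 FC of -0.06. Receptor activity was not measured, and a link between ESRRA and the subunits was not tested. NRF1, another activator of subunit genes, differed by 0.37 (SE 0.29), and by 0.24 to 0.57 with 1 cow left out. TFB2M, which starts transcription of mitochondrial DNA, lay between -0.62 and -0.26 in CONT (median -0.49) and between -1.18 and -0.43 in REST (median -0.72). For TFB2M, 5 REST cows were below every CONT cow (log2 FC -0.28, SE 0.15; exact permutation p = 0.026, not adjusted), and its limma p after Westfall-Young adjustment was 1.

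Electron carriers and partner proteins were matched for 23 of 24 genes, with 9 higher, 14 lower and a median of -0.04, and 0 had an unadjusted limma p under 0.05. COQ8A, needed for ubiquinone synthesis, differed by 0.33 (SE 0.21). ETFB, which brings electrons from fatty acid oxidation, differed by 0.25 (SE 0.16), and by 0.16 to 0.31 with 1 cow left out. UCP2, an inner membrane carrier, differed by 0.90 (SE 0.57) but exceeded background on only 4 CONT arrays, against 6 REST arrays. None of the 13 genes of mitochondrial DNA was matched, so the subunits built inside the organelle were not analysed here.

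**Figure D5:**
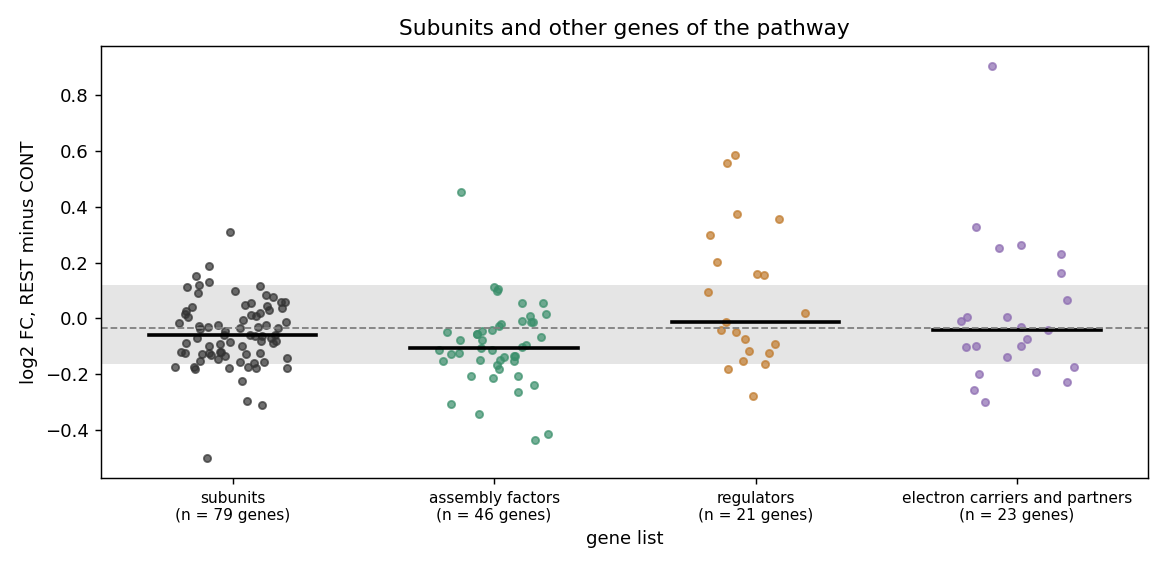
Log2 FC (REST minus CONT) of single genes in 4 lists: 79 subunits (without COX7B2), 46 assembly factors, 21 regulators and 23 electron carriers and partners; black bars are list medians, the dashed line is the median of all named genes and the grey band their middle 50%. List medians run from -0.11 for assembly factors to -0.01 for regulators.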

How the data were processed

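From a larger set of cows, the authors kept 12 after checks of RNA quality. They labelled total RNA of these mammary biopsies (100 ng per sample) with Cy3 and hybridised it to single-colour bovine Agilent arrays. The deposited scanner files (Agilent Feature Extraction 11.0.1.1, per the file headers) give the intensity of each spot after background correction (processed signal). Here log2 intensity was shifted by the 75th percentile of each array, spots with outlier flags were left out, and spots of a probe were averaged. Probes were named through RefSeq accessions (26832 of 43653 probes), without coordinates, because the array and the table differ in build. The brightest probe, by mean over 12 arrays, stood for a gene. Diets were compared with limma 3.58.1 in R 4.3.3, with Westfall-Young adjustment over 100 of 462 splits (smallest value 0.01) and Benjamini-Hochberg as an alternative, at 0.05, over all probes. Exact permutation tests were two-sided and not adjusted, with a smallest p of 0.00216. The fit was tested on simulated data. Named genes were the members of lowest unadjusted p in each complex (6 in complex I, all of complex II, 4 elsewhere), core subunits, isoforms and ATP5IF1, and the 3 of lowest p in each other list. The members and lists were chosen with earlier results of these data known. The number of arrays limits the precision.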

Additional observations from a re-analysis of the deposited data

Results flagged for a closer look

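Single cows lay far from the rest of their group in 4 of 98 groups of 6 values examined, where chance alone gives about 1 in 20. COX4I2 was at -3.87 in CONT cow 8027, with the other CONT cows between -2.23 and -1.38. NDUFA4L2 was at -1.88 in the same cow, with the others between -0.72 and -0.21. COX8B was at -4.34 in REST cow 1058, with the other REST cows between -3.59 and -3.32. SCO1 was at 1.76 in REST cow 0049, with the others between 2.01 and 2.14.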

How the results depend on the processing

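Over 55 results and their alternatives, 876 values stayed the same, 38 turned in sign and 8 moved. Single genes stayed the same if direction and call held, and counts if they were equal or within 1.5 times. Medians stayed the same if their shift was smaller than the spread of cows, whatever their sign. The medians of complex II and of regulators turned in sign with 1 cow left out and are among the 876. No member was called under any alternative run, but 1 probe outside the members was called when only probes well above background were tested. With quantile normalization 1 member, UQCRH, had an unadjusted limma p under 0.05. Leaving out 1 cow gave 0 to 1 such members: UQCRH without CONT cow 0055 and COX7A1 without REST cow 0078. The number of members higher in REST was 13 with slide as a block, and 7 to 36 when 1 cow was left out, with the lowest count without CONT cow 8027. In all 12 of these fits the share of members that were higher was below that of named genes.

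The genes that turned in sign had log2 FC near 0 or wide intervals. ATP5MC2 became 0.035 with normexp and 0.11 as the mean over probes. COX6A2 became -0.039 with quantile normalization and -0.30 with slide as a block. COX6B2 became -0.033 with slide as a block and -0.12 as the mean over probes. SDHA became -0.028 with quantile normalization, -0.027 with slide as a block and -0.027 as the mean over probes. The cause was not tested.

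With 1 cow left out, the log2 FC ranged from -0.054 to 0.066 for ATP5MC2, -0.26 to 0.24 for COX4I2, -0.34 to 0.30 for COX6A2, -0.051 to 0.34 for COX6B2 and -0.034 to 0.29 for COX8B. It ranged from -0.13 to 0.20 for NDUFA4L2, -0.062 to 0.11 for SDHA, -0.093 to 0.076 for SDHB, -0.015 to 0.086 for UQCRC1 and -0.12 to 0.0037 for UQCRFS1. Of the 34 named members, 19 others moved by over 1.5 times without turning, and in none of the 34 was the shift larger than its SE. The log2 FC of ATP5MC1 ran from -0.25 (without REST cow 1015) to -0.079 (without CONT cow 1024), ATP5F1B from -0.12 (without REST cow 1058) to -0.013 (without CONT cow 1024), NDUFA3 from 0.16 (without CONT cow 8027) to 0.43 (without REST cow 0078) and NDUFA4 from -0.28 (without REST cow 1015) to -0.069 (without REST cow 1018). UQCR10 was -0.011 without REST cow 7043 and UQCRQ -0.0011 without REST cow 0049. The median of complex II ran from -0.09 to 0.08, that of complex III from -0.12 (without CONT cow 0055) to -0.0053 (without REST cow 0049), that of complex V from -0.11 (without REST cow 1015) to -0.014 (without REST cow 1018) and that of regulators from -0.07 to 0.05. No paired analysis was possible because the labels give every cow the same replicate text and nothing pairs cows across diets.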
